A study of Mus musculus with 4 samples.

Results

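The 47 genes described here encode the machinery that cells use to divide: condensin subunits, kinetochore proteins, mitotic kinases, cyclins and degradation factors, kinesins, and cytokinesis, spindle and chromosome proteins. They were chosen by name from a fixed list, without a threshold on their values, and all 47 were among the 18364 genes of the table. The list was made with earlier results of these data known. RNA came from large peritoneal macrophages (LPMs), which reside in the peritoneal cavity for long periods, sorted as F4/80+ MHCII-negative CD102+ cells from 8-week-old C57BL/6 mice. The 2 libraries labelled WT are wild type by genotype (per the study, *Rxra* fl/fl mice), and the 2 libraries labelled Rxra-KO carry the genotype *Rxra*-/-, made with LysM Cre, which deletes the floxed gene in cells with an active *Lyz2* locus (monocytes, macrophages and neutrophils) and not in the whole animal. The labels do not say whether a library is 1 mouse or a pool of mice, so the spread between libraries of a group may be technical. The comparison asks how the RNA of LPMs differs between these genotypes.

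In mitosis, condensin rings compact the replicated chromosomes, kinetochores assembled on centromeres bind spindle microtubules, and kinesin motors arrange the spindle. *Cdk1* with its B-type cyclins starts the process, Aurora and Polo-like kinases steer it, and the anaphase-promoting complex ends it by marking cyclins for destruction. Most of these genes are transcribed late in the cell cycle, so their RNA is low in resting cells. LPMs are long-lived cells that maintain themselves in place by slow division. In bulk RNA, fewer dividing cells and less RNA per dividing cell cannot be told apart.

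Late cell cycle genes are classically controlled through a pair of short promoter elements, the CCAAT box (CCAAT, bound by the factor NF-Y) and the cell cycle genes homology region (CHR, TTTGAA, bound by the DREAM and MuvB complexes). Both were searched on both strands in the 250 bases before the annotated start of each gene in the RefSeq promoter table of GRCm38.p6, and matches of the 2 motifs can overlap by no more than a base at their ends. A promoter was listed for 41 of the 47 genes, in 43 entries. *Aurkb*, *Ccna2*, *Cdca2*, *Kif20a*, *Smc4* and *Tpx2* had none. Shown are the promoters of the 4 genes with the lowest adjusted p that had an entry (*Mki67*, *Cenpe*, *Top2a* and *Ccnb2*), of *Hmmr*, the most counted gene whose RNA did not pass the test, and of *Smc2*, the most counted such gene with a CHR element. They read 5′ to 3′ on the strand of the gene, plus for *Cenpe* and *Smc2* and minus for the others, with CCAAT boxes and CHR elements in either orientation in capitals. The intervals are chr7:135716380-135716629 for *Mki67*, chr3:135212313-135212562 for *Cenpe*, chr11:99024190-99024439 for *Top2a*, chr9:70421555-70421804 for *Ccnb2*, chr11:40733438-40733687 for *Hmmr* and chr4:52438971-52439220 for *Smc2*.
Mki67: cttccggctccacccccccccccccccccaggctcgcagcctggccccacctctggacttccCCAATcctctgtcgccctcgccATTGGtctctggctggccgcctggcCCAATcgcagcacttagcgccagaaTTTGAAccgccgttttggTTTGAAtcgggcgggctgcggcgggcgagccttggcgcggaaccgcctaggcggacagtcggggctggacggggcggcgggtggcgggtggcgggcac
Cenpe: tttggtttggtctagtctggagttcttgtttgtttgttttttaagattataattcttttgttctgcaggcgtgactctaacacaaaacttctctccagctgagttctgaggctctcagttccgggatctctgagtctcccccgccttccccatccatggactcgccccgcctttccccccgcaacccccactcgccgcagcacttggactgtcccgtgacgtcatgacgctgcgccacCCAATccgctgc
Top2a: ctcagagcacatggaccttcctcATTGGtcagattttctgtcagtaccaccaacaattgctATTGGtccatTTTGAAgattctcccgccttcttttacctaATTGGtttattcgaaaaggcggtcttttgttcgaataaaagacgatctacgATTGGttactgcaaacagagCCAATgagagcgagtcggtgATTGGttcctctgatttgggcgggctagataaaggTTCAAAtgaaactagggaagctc
Ccnb2: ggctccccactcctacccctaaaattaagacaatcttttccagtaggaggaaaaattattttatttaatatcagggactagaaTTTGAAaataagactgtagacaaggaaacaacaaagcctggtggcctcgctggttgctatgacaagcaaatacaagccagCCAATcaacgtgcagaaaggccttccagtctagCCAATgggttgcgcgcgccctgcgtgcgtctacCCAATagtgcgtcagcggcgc
Hmmr: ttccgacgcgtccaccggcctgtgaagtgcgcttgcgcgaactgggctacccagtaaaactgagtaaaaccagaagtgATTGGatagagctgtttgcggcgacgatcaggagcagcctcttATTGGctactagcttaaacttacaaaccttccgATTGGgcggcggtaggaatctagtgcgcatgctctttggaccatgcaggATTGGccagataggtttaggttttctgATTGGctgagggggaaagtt
Smc2: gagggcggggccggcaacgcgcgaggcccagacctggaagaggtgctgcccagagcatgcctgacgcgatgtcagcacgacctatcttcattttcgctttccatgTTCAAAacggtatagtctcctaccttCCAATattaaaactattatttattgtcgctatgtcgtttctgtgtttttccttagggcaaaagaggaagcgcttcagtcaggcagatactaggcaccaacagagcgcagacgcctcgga

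The *Mki67* promoter holds 2 CHR elements and 3 CCAAT boxes, the *Cenpe* promoter 0 and 1, the *Top2a* promoter 2 and 6, and the *Ccnb2* promoter 1 and 3. Of the genes that did not pass the test, *Hmmr* has 0 and 5 and *Smc2* has 1 and 1. Of the other called genes with an entry, *Cenpf* has 0 CHR elements and 2 CCAAT boxes, and *Ncaph* and *Kif20b* have 0 of either. Among the promoters of the 47 genes, 44.19% held a CHR element and 76.74% a CCAAT box, against 15.99% and 33.85% of all 32851 promoters of the table. Both motifs stood together in 37.21% of these promoters and in 5.549% of all promoters. The elements were spread over genes whose RNA passed the test and genes whose RNA did not: a CHR element stood in 3 of 7 promoters of genes called lower in Rxra-KO and in 16 of 36 promoters of the others. A match is a run of letters and not a measured binding site.

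Before the genes themselves, the libraries need a short account. Recovered depth was between 629030 and 1047021 reads per library, so a read was worth a deposited value of 0.993 to 1.51, and many of these genes were counted in single or low double digits. *Rxra* itself, the targeted gene, had values of 31.0 and 30.9 in WT against 50.4 and 77.0 in Rxra-KO, so its signal was not lower there. Gene-level values do not separate the floxed exons from the rest of the transcript, so they cannot check the labels in either direction. Directions below are therefore those of the libraries labelled Rxra-KO. Markers of LPMs were present in all libraries, led by *Prg4* with 10048 to 27362 reads, and 8 of the 12 were called lower in Rxra-KO. All 7 genes of small peritoneal macrophages (SPMs) were called higher, with a summed value of 360 and 105 in WT against 4324 and 5802 in Rxra-KO. Their direction was known beforehand, since the study named these genes as SPM genes raised in these same data. Of 7 genes of MHC class II, whose protein is high on SPMs per the study, 1 was called lower and 0 higher. Of 9 dendritic cell genes 2 were called higher (*Cd209a* and *Clec10a*), and the sums were 74.2 and 86.8 in WT against 211 and 237 in Rxra-KO. B cell, T and NK cell, monocyte, neutrophil, mast cell, mesothelial and erythroid markers each summed to at most 155 in every library, and of these genes *Cd2* was called higher, from 0 reads in each WT library against 11 and 6 in Rxra-KO, and *Cd247* lower, with 9 and 20 reads in WT against 1 and 2 in Rxra-KO. The part of SPM-type and dendritic cell transcripts in the differences below was not tested.

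The clearest feature of the mitosis genes was lower RNA in Rxra-KO, carried by a part of the set. Because the set was chosen with earlier results of these data known, its counts beside those of all genes are a description and not a test. A gene was called when limma gave a Benjamini-Hochberg adjusted p under 0.05 over all 18364 genes and a log2 difference of at least 0.6. By this rule 9 of the 47 genes were called lower (*Mki67*, *Top2a*, *Cdca2*, *Ncaph*, *Smc4*, *Cenpe*, *Cenpf*, *Ccnb2* and *Kif20b*) and 0 were called higher, where 0.969% of all genes were called lower and 1.32% higher. At an unadjusted p under 0.05, limma gave 21 lower and 0 higher, where 4.42% of all genes were lower and 5.68% higher. On the recovered reads edgeR called 11 lower and 0 higher, the same 9 with *Kif11* and *Kif22*, against 1.06% of all genes called lower by edgeR. DESeq2 called 5 of the 9 and gave 2 of them no adjusted p. It gave an adjusted p for 17 of the 47 genes and called 112 of all genes lower. Quantile normalization of all genes and limma without a mean-variance trend called 0 of the 47. Over all genes they called 18 and 0 lower. In each, 18 of the 47 were lower at an unadjusted p under 0.05. At that p, 1620 and 1579 of all genes stood in either direction. The log2 difference was below 0 for 41 genes and above 0 for 6. Its median was -0.97 over the 47 genes and 0.02 over all genes, and -0.84 with genes at the floor of 3 reads per library held at their bound. In 30 genes both Rxra-KO libraries were below both WT libraries, an order seen in 19.3% of all genes, and in 0 genes were both above, an order seen in 18.8% of all genes.

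**Figure D1:**
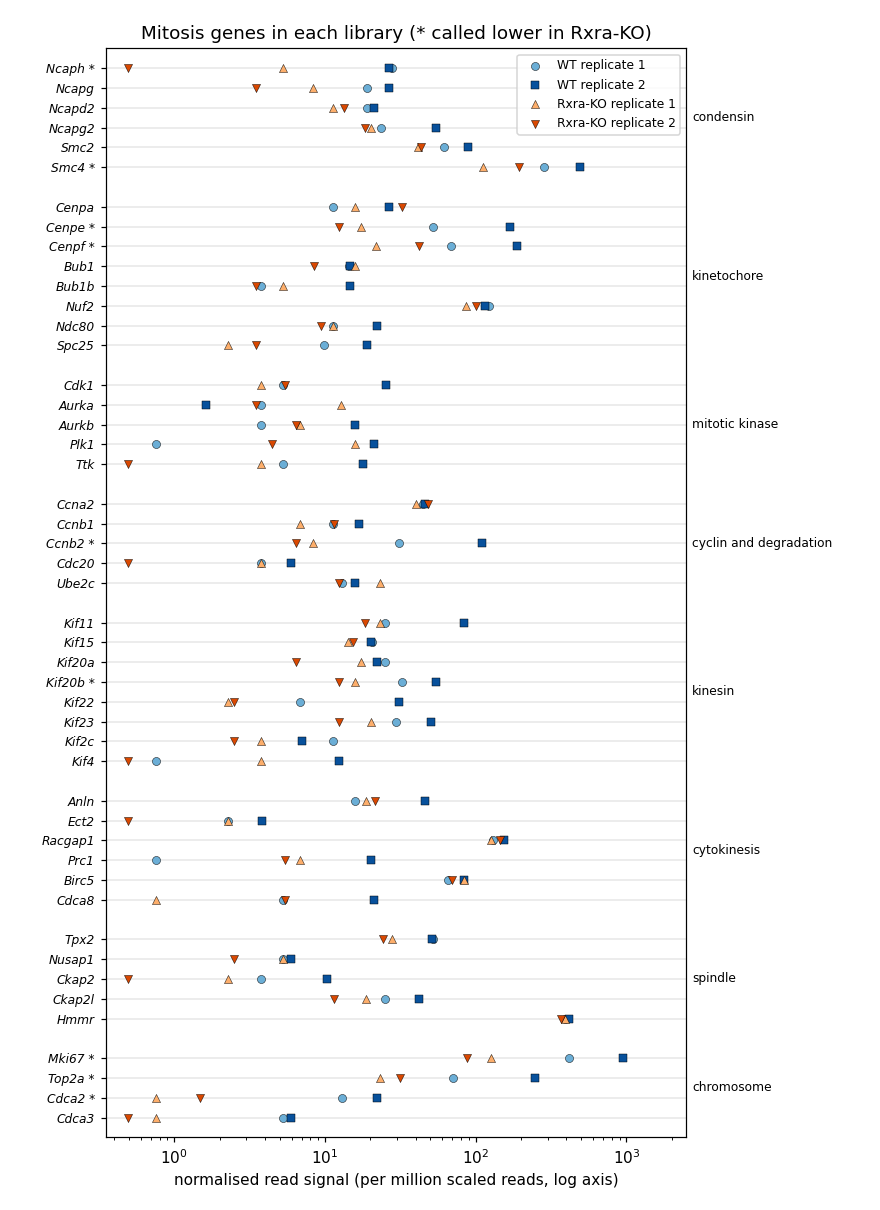
Normalised read signal (log axis) of each of the 47 genes, grouped by class, with 1 point per library and an asterisk at the 9 genes called lower. The signal of Mki67 runs from 86.9 to 942, while the 4 points of Hmmr lie between 366 and 415.

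Together these genes took 0.219% of the reads in WT replicate 1 (95% exact binomial interval 0.208% to 0.231%) and 0.378% in WT replicate 2 (0.365% to 0.390%). They took 0.148% in Rxra-KO replicate 1 (0.139% to 0.158%) and 0.135% in Rxra-KO replicate 2 (0.128% to 0.142%). Both Rxra-KO libraries were below both WT libraries, at 0.142% ± 0.00916 against 0.299% ± 0.112 (SD, n = 2 each). The WT libraries lay further apart than the Rxra-KO libraries, and with 2 libraries against 2 an exact two-sided permutation test cannot go below p = 0.333. *Mki67* alone made up 19.2% and 24.3% of the reads of the set in WT against 9.02% and 6.15% in Rxra-KO. Without it the shares were 0.177% and 0.286% in WT against 0.135% and 0.127% in Rxra-KO, in the same order. These intervals cover counting error only, since the reads carry no molecular identifiers.

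**Figure D2:**
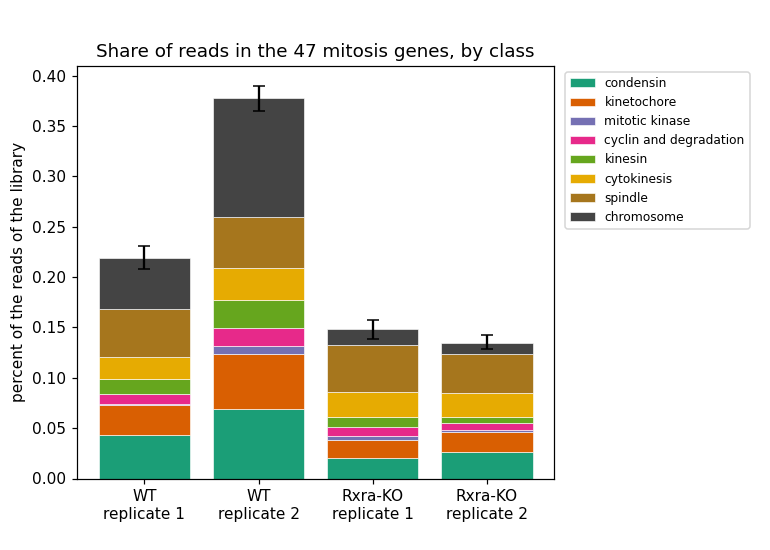
Percent of the reads of each library that fell in the 47 genes, stacked by class, with the 95% exact binomial interval of the total. The totals are 0.219% and 0.378% in WT against 0.148% and 0.135% in Rxra-KO, and the chromosome class makes up 0.0509% and 0.118% in WT against 0.0157% and 0.0114% in Rxra-KO.

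The 2 WT libraries were not alike. WT replicate 2 was above WT replicate 1 in 40 of the 47 genes, with a median log2 ratio of 0.74, where 9222 of all 18364 genes were above and the median was 0.00. Between the Rxra-KO libraries the median log2 ratio was -0.25, and replicate 2 was above replicate 1 in 17 genes. The Rxra-KO mean was below WT replicate 1 in 36 genes, with a median log2 difference of -0.57, and below WT replicate 2 in 45 genes, with a median of -1.45. Without WT replicate 2, limma called 2 of the 47 genes lower, *Mki67* and *Ncaph*, against 0.381% of all genes. The range of counts with each library left out in turn is given below, beside the range over all genes. MHC class II genes moved the same way between the WT libraries. Their summed value was 474 in WT replicate 1 and 2909 in WT replicate 2, against 251 and 791 in Rxra-KO, and all 7 were higher in WT replicate 2 than in WT replicate 1. All 7 were also higher in Rxra-KO replicate 2 than in Rxra-KO replicate 1, with a median log2 ratio of 1.20, where 17 of the 47 mitosis genes were higher. *H2-Ab1*, with 241 and 2289 reads in WT against 106 and 614 in Rxra-KO, was called lower although its groups overlapped. The part of the MHC class II genes in the differences of the mitosis genes was not tested.

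**Figure D3:**
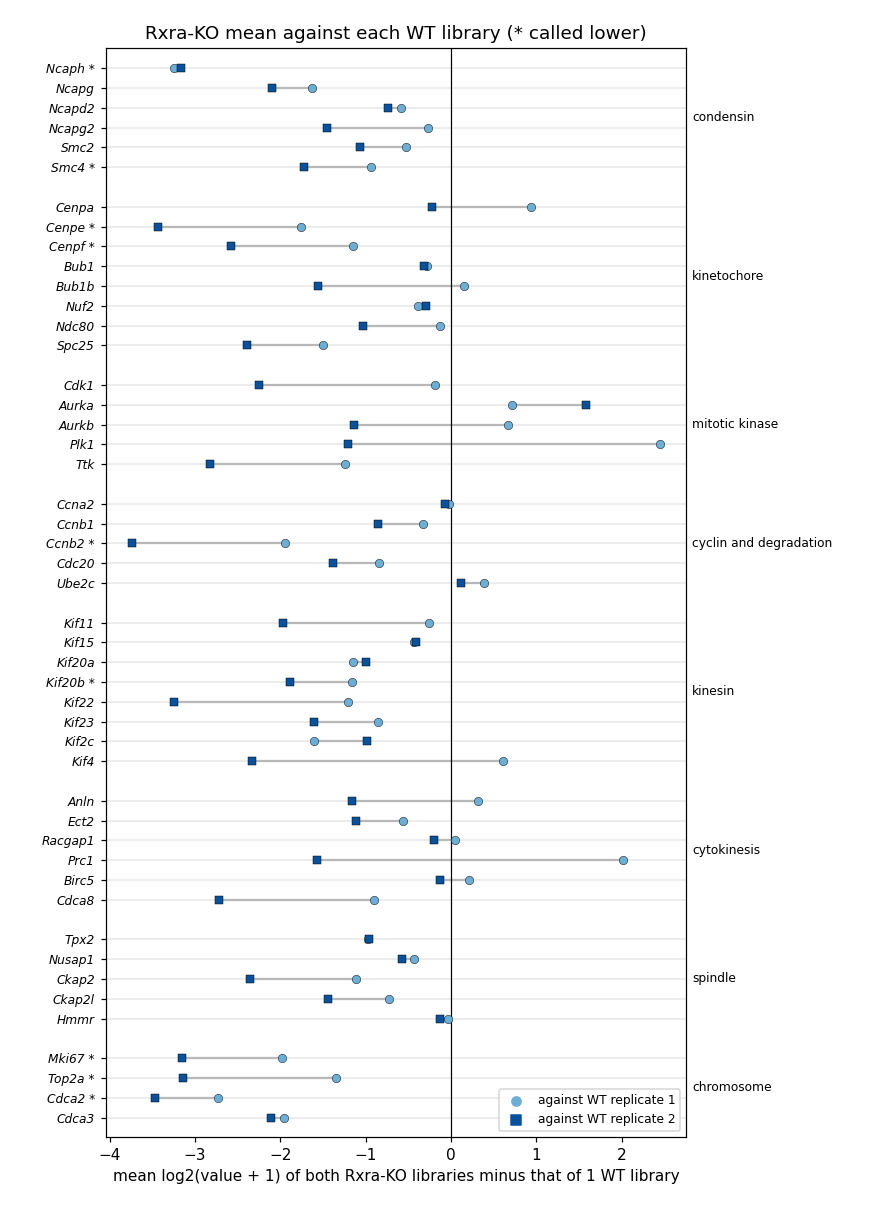
Mean log2(value + 1) of the Rxra-KO libraries minus that of WT replicate 1 (circles) and WT replicate 2 (squares) for each gene. Points left of 0 are lower in Rxra-KO, which holds for 36 genes against WT replicate 1 and 45 against WT replicate 2.

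All 4 chromosome genes had lower values in both Rxra-KO libraries than in both WT libraries, and 3 were called lower. *Mki67*, which encodes the Ki-67 protein that coats mitotic chromosomes and serves as the standard marker of cycling cells, had values of 417 and 942 in WT against 127 and 86.9 in Rxra-KO (275, 868, 84 and 87 reads). It fell by 2.56 ± 0.25 on the log2 scale (limma, SE, adjusted p = 3.35e-18). Here and throughout, each SE, interval and p of limma rests mostly on a spread shared across genes. It is not the spread of that gene between its own libraries. For *Mki67*, WT replicate 2 was 2.26 times as high as WT replicate 1. Its adjusted p was the lowest of the set, and without WT replicate 2 the log2 difference of *Mki67* was -1.98. *Top2a*, the topoisomerase that untangles sister chromatids, had values of 70.4 and 246 in WT against 23.3 and 31.3 in Rxra-KO. It fell by 2.24 ± 0.34 (adjusted p = 6.82e-08), the groups did not overlap, and WT replicate 2 was 3.49 times as high as WT replicate 1. Without WT replicate 2 the difference was -1.35 (adjusted p = 0.151) and was not called. *Cdca2*, which brings a protein phosphatase to chromosomes as cells leave mitosis, was counted 8 and 20 times in WT against 0 and 1 times in Rxra-KO. The ratio of WT to Rxra-KO reads at equal depth was 29.6, with a 95% counting interval of 4.89 to 1209, and the adjusted p was 0.00654. It was not called without WT replicate 2 (adjusted p = 0.295) or without Rxra-KO replicate 1 (adjusted p = 0.0746). *Cdca3*, a factor of mitotic entry, had 3 and 5 reads in WT and 0 in both Rxra-KO libraries, and was not called (adjusted p = 0.248).

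The 6 condensin genes all had lower values in both Rxra-KO libraries than in both WT libraries, with a median log2 difference of -1.10, and 2 were called lower. *Smc4*, an ATPase at the core of both condensin complexes and the most counted gene of this class, had values of 284 and 491 in WT against 112 and 195 in Rxra-KO. It fell by 1.33 ± 0.25 (adjusted p = 2.98e-05), and the groups did not overlap. *Ncaph*, the subunit that closes the ring of condensin I, was counted 18 and 24 times in WT against 3 and 0 times in Rxra-KO. At equal depth its WT to Rxra-KO ratio was 14.8, with a counting interval of 4.73 to 74.6 (adjusted p = 8.83e-04). The WT libraries were close to each other for *Ncaph*, with a ratio of 0.949 between their values, and it was called without either of them. It was not called without Rxra-KO replicate 2 (adjusted p = 0.0759). *Smc4* was not called without WT replicate 2 (adjusted p = 0.163) or without Rxra-KO replicate 1 (adjusted p = 0.0602). The other condensin genes were not called: *Ncapg* and *Ncapd2* of condensin I, *Ncapg2* of condensin II and the ATPase *Smc2* had log2 differences between -1.86 and -0.66.

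Of the 8 kinetochore genes, 2 were called lower. *Cenpe*, a kinesin that carries chromosomes along microtubules to the spindle equator, had values of 52.2 and 169 in WT against 17.3 and 12.4 in Rxra-KO and fell by 2.60 ± 0.39 (adjusted p = 5.97e-08). *Cenpf*, a large coiled-coil protein of the outer kinetochore, had values of 68.9 and 187 in WT against 21.8 and 42.2 in Rxra-KO and fell by 1.87 ± 0.34 (adjusted p = 1.64e-05). Neither overlapped between groups, and both were higher in WT replicate 2 than in WT replicate 1, by 3.23 and 2.72 times. Without WT replicate 2 the differences were -1.76 for *Cenpe* (adjusted p = 0.0808) and -1.15 for *Cenpf* (adjusted p = 0.307), and neither was called. *Nuf2*, the subunit of the NDC80 complex with the most reads of this class, had values of 122 and 114 in WT against 86.6 and 99.8 in Rxra-KO. Its log2 difference was -0.34 (95% interval -0.90 to 0.21), and it was not called. Its partners *Ndc80* and *Spc25* had log2 differences of -0.58 and -1.95, the checkpoint genes *Bub1* and *Bub1b* -0.30 and -0.71, and *Cenpa*, the histone of centromeres, 0.36. None of these 5 was called, and 3 of them had both groups overlapping.

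Kinesins of the spindle and midzone all had a log2 difference below 0, with a median of -1.17, and 1 of 8 was called lower. *Kif20b*, a motor of late mitosis, had values of 32.5 and 54.8 in WT against 15.8 and 12.4 in Rxra-KO. It fell by 1.53 ± 0.45 (adjusted p = 0.0407), close to the threshold, and it was not called without WT replicate 2 (adjusted p = 0.568), Rxra-KO replicate 1 (adjusted p = 0.108) or Rxra-KO replicate 2 (adjusted p = 0.271). *Kif11*, which pushes the spindle poles apart and had the most reads of this class, had values of 25.0 and 84.1 in WT against 23.3 and 18.4 in Rxra-KO. The Rxra-KO libraries sat just below WT replicate 1 and far below WT replicate 2, and limma gave -1.11 (adjusted p = 0.203). *Kif22*, *Kif23*, *Kif20a*, *Kif2c*, *Kif15* and *Kif4* had log2 differences between -2.23 and -0.42 and were not called.

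Among the cyclins and degradation factors, *Ccnb2* stood apart. *Ccnb2*, a B-type cyclin and partner of *Cdk1*, had values of 31.0 and 110 in WT against 8.28 and 6.46 in Rxra-KO (20, 101, 5 and 6 reads) and fell by 2.84 ± 0.49 (adjusted p = 3.61e-06). The groups did not overlap, and without WT replicate 2 the difference was -1.95 (adjusted p = 0.213) and was not called. *Ccnb1*, the other B-type cyclin, had values of 11.4 and 16.8 in WT against 6.78 and 11.4 in Rxra-KO, with a log2 difference of -0.59 (95% interval -1.84 to 0.65). *Ccna2*, the cyclin of DNA replication and early mitosis and the most counted gene of the class, had values of 44.7 and 46.1 in WT against 39.9 and 48.2 in Rxra-KO. Its log2 difference was -0.05 (95% interval -0.76 to 0.66). *Cdc20* and *Ube2c*, an activator and a ubiquitin-conjugating enzyme of the anaphase-promoting complex, had log2 differences of -1.11 and 0.25 and were not called.

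The 5 mitotic kinases were counted rarely, and 0 were called by limma or edgeR, with 1 (*Ttk*) at an unadjusted p under 0.05 in limma. *Cdk1*, the kinase that drives mitotic entry, was counted 3 and 23 times in WT against 2 and 5 times in Rxra-KO. Its log2 difference was -1.22 (95% interval -2.65 to 0.22), and the high value stood in WT replicate 2. *Plk1*, which matures centrosomes and kinetochores, had 0 and 19 reads in WT against 10 and 4 in Rxra-KO. *Aurkb*, the kinase of the chromosomal passenger complex, had 2 and 14 reads in WT against 4 and 6 in Rxra-KO. Both overlapped between groups, with the 2 WT libraries at opposite ends. The log2 difference of *Plk1* was 0.62 in limma and -0.32 in edgeR, and that of *Aurkb* was -0.23 in limma. *Aurka*, the kinase of spindle poles, and *Ttk*, the checkpoint kinase also called Mps1, had log2 differences of 1.15 and -2.03 and were not called.

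Of the 6 cytokinesis genes, 2 had a mean of at least 50 reads per library and 3 a mean under 10, and 0 were called by limma or edgeR. One gene, *Cdca8*, was under an unadjusted p of 0.05 in limma. *Racgap1*, which with *Kif23* bundles the central spindle, had values of 131 and 155 in WT against 126 and 144 in Rxra-KO. Its log2 difference was -0.08 (95% interval -0.60 to 0.45), and the groups overlapped. *Birc5*, the survivin subunit of the passenger complex, had values of 65.9 and 84.1 in WT against 83.6 and 70.02 in Rxra-KO, with a log2 difference of 0.04 (95% interval -0.57 to 0.65). For both genes the interval excludes a fall as large as that of *Mki67* or *Ccnb2*. *Cdca8*, the passenger subunit borealin, had a log2 difference of -1.81, and *Anln*, *Ect2* and *Prc1*, which build the cleavage furrow and midzone, were between -0.84 and 0.22.

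The 5 spindle genes had a median log2 difference of -0.97, and 0 were called by limma or edgeR, with 3 under an unadjusted p of 0.05 in limma (*Tpx2*, *Ckap2* and *Ckap2l*). *Hmmr*, a spindle pole protein that also binds hyaluronan, had values of 388 and 415 in WT against 392 and 366 in Rxra-KO (256, 382, 260 and 368 reads). It was counted about as often as *Mki67*, and its log2 difference was -0.08 (95% interval -0.53 to 0.36). *Tpx2*, which activates Aurora A on the spindle, had a difference of -0.97 (adjusted p = 0.259), and the values of both Rxra-KO libraries were below those of both WT libraries. *Nusap1*, *Ckap2* and *Ckap2l*, which bind microtubules, had differences between -1.74 and -0.50.

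**Figure D4:**
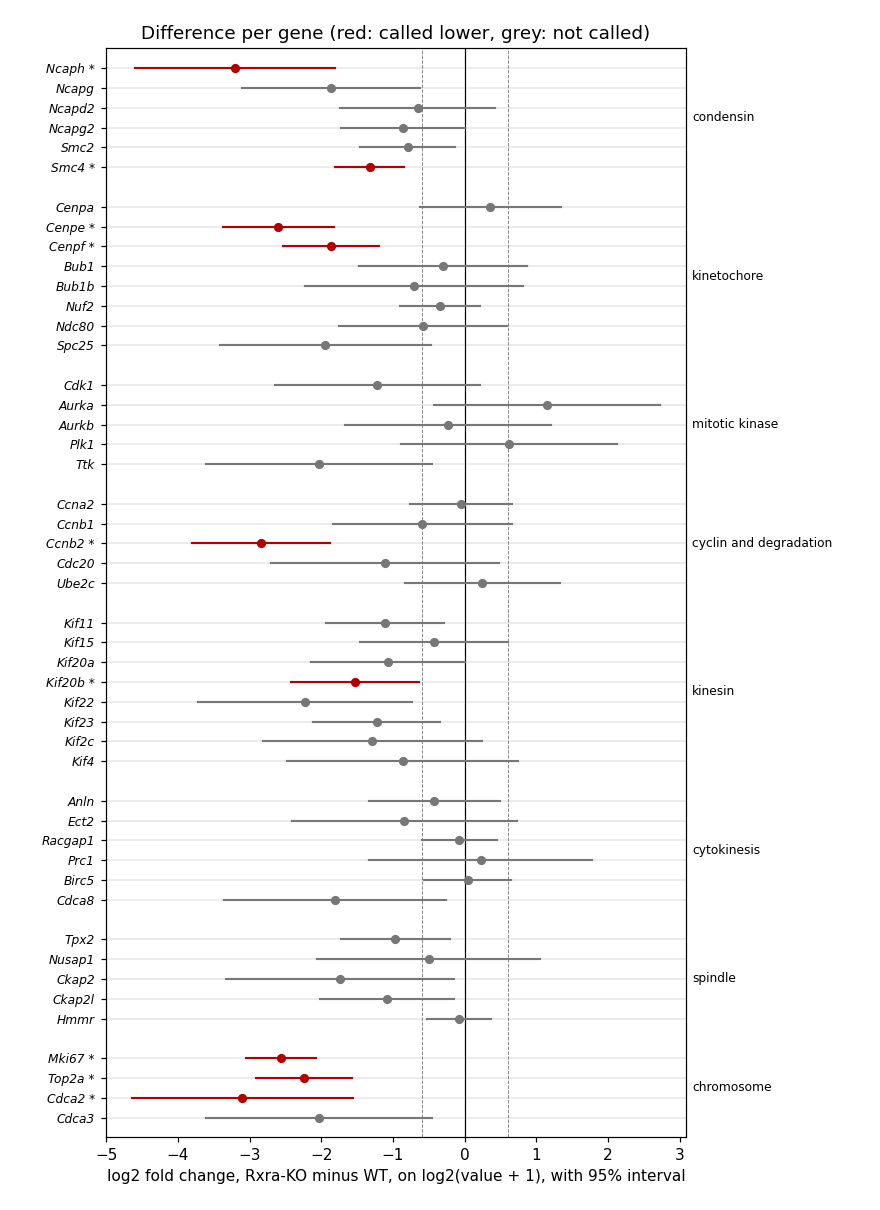
Log2 difference between Rxra-KO and WT on the log2(value + 1) scale for each gene with its 95% limma interval, in red where called lower, with dashed lines at the threshold of 0.6 in both directions. The called genes run from -3.21 (Ncaph) to -1.33 (Smc4); the plotted values of Ncaph and Cdca2 rest on at most 3 reads in each Rxra-KO library.

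Calls were more frequent among the better counted genes. Of the 47 genes, 19 had a mean under 10 reads per library and 1 of these was called lower (*Cdca2*), 19 had a mean of 10 to 50 and 3 were called (*Ncaph*, *Ccnb2* and *Kif20b*), and 9 had a mean of at least 50 and 5 were called (*Smc4*, *Cenpe*, *Cenpf*, *Mki67* and *Top2a*). Among all 2843 genes with a mean of at least 50 reads, 4.29% were called lower. Calls rose with depth over all genes too. In either direction, 14 of 9514 genes were called under 10 reads, 126 of 6007 at 10 to 50 and 281 of 2843 at 50 or more. The 4 well counted genes that were not called were *Hmmr*, *Racgap1*, *Birc5* and *Nuf2*, with log2 differences from -0.34 to 0.04. In both Rxra-KO libraries 13 genes had at most 3 reads, and for these a lower value in Rxra-KO was detectable only where WT was well above this floor.

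**Figure D5:**
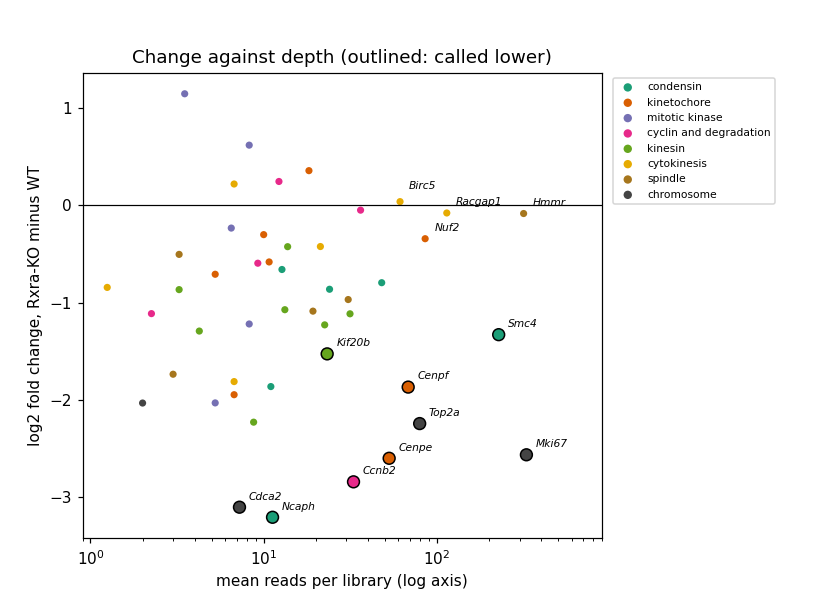
Log2 difference (Rxra-KO minus WT) against the mean reads per library (log axis) for the 47 genes, coloured by class, with the 9 genes called lower outlined. Hmmr (-0.08) and Mki67 (-2.56) lie side by side in depth, at means of 316.5 and 328.5 reads, and far apart in difference.

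The order of abundance differed between the groups. On a scale of value per kilobase of the longest coding transcript in GENCODE M21, the highest levels in WT were 103 for *Hmmr*, 89.8 for *Smc4*, 67.6 for *Mki67*, 49.1 for *Nuf2*, 46.8 for *Racgap1*, 46.1 for *Ccnb2* and 30.3 for *Top2a*. In Rxra-KO the order began with *Hmmr* at 97.4, *Racgap1* at 44.3, *Nuf2* at 38.8, *Smc4* at 35.6 and *Birc5* at 23.0. *Mki67* stood at rank 8 there with 10.6, *Top2a* at rank 12 with 5.23 and *Ccnb2* at rank 15 with 4.81. Each neighbouring pair in this WT order differed by less than the larger SD of the pair (n = 2), with SDs from 2.19 for *Nuf2* to 36.9 for *Mki67*. In Rxra-KO the lead of *Hmmr* over *Racgap1* exceeded their SDs of 4.77 and 4.35, while *Nuf2*, *Smc4* and *Birc5* followed within the SD of 13.6 of *Smc4*.

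Further genes of the mitotic pathway were taken from lists by function. Of 108 other condensin, cohesin, kinetochore, anaphase-promoting complex, mitotic entry, kinesin and spindle genes in the table, 2 were called lower and 0 higher by limma, with 10 lower and 5 higher at an unadjusted p under 0.05, against 0.969% of all genes called lower and 4.42% lower and 5.68% higher at that unadjusted p. Their median log2 difference was -0.26. *Aspm*, a spindle pole protein, had 34 and 63 reads in WT against 9 and 14 in Rxra-KO and fell by 1.99 ± 0.42 (adjusted p = 3.90e-04). *Tacc3*, which stabilises spindle microtubules, had 32 and 91 reads in WT against 19 and 27 in Rxra-KO and fell by 1.27 ± 0.36 (adjusted p = 0.0278). Without WT replicate 2 neither was called, and *Tacc3* was not called without Rxra-KO replicate 1 or Rxra-KO replicate 2. The 18 genes of cohesin and of the rest of condensin had a median of -0.13, the 34 kinetochore genes -0.48, the 17 genes of the anaphase-promoting complex -0.12, the 18 genes of mitotic entry -0.22 and the 21 kinesin and spindle genes -0.38.

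Other kinesins carry cargo along microtubules in cells that do not divide. The 24 transport kinesin genes and light chains had a median log2 difference of 0.33, with 0 called by limma and 0 lower and 3 higher at an unadjusted p under 0.05 (4.42% and 5.68% of all genes). The 19 genes of the transcription factors that act on CHR elements and E2F sites had a median of -0.18, with 0 called, and 1 lower and 1 higher at an unadjusted p under 0.05. *Foxm1*, the forkhead factor of late cell cycle genes, had 5 and 10 reads in WT against 5 and 6 in Rxra-KO, with a log2 difference of -0.37. *Mybl2*, the Myb factor that joins MuvB, had 8 and 9 reads in WT against 12 and 14 in Rxra-KO, with a difference of 0.48. Neither difference passed the test.

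Some of these genes share bases with a gene on the opposite strand in GENCODE M21, among them *Ncapg* with *Lcorl*, *Plk1* with *Gm44985*, *Ccna2* with *Exosc9*, *Cdc20* with *Elovl1*, *Ube2c* with *Tnnc2*, *Kif20a* with *Cdc23*, *Kif4* with *Pdzd11*, *Prc1* with *Rccd1*, *Nusap1* with *Oip5* and *Ckap2l* with *Gm14024*. The library kit does not mark strand, so their reads are uncertain by the share of that partner. Annotated pseudogenes stand beside the names of *Ccnb1*, *Ccnb2*, *Kif22* and *Kif4*, and reads could be split with them. Pseudogenes were looked for only by name, as the gene symbol followed by -ps, so those named otherwise were not seen. By this search *Ccnb2* is the only one of the 9 genes called lower with such a partner or pseudogene.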

How the data were processed

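RNA of LPMs, double-sorted by the authors, was sequenced in 4 bulk libraries (2 WT, 2 Rxra-KO) prepared with the SMART-Seq v4 kit for low input, marking neither strand nor molecule. Per the submitters' processing notes and the methods, kallisto 0.43.0 quantified transcripts, tximport summarised them to genes and limma compared groups. The named reference, GRCh38, is human while the libraries are mouse, so the reference used was not settled. The study reports leaving out RNA-seq samples that did not group with their condition, so only libraries kept by that rule were analysed here. Such a rule can narrow the spread within groups. Its part in the p-values and in the order of the groups was not tested. The values deposited by the authors were a normalised read signal, equal to (reads + 0.5) times a fixed step per library. Whole reads were recovered from 100% of the values (tolerance 0.01). Depth was 652542 and 947372 reads in WT against 629030 and 1047021 in Rxra-KO.

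Groups followed the sample titles. Each gene was fitted with limma 3.58.1 (R 4.3.3) with a mean-variance trend on log2(value + 1), which understates changes of low genes, over the 4 libraries and without covariates. P-values were two-sided and adjusted over 18364 genes by Benjamini and Hochberg. Calls needed an adjusted p under 0.05 with a log2 difference of 0.6 or more in size. The filter, a value of at least 1 in 2 libraries, removed no gene. The prior degrees of freedom were 227 against 2 residual, so each p rests on a spread shared across genes. The floor of a group was set at 3 reads in each of its libraries. With 1 to 3 reads in a group, the ratio of reads is given with an exact conditional Poisson interval. Alternatives were edgeR 4.0.16 and DESeq2 1.42.0 on the recovered reads, voom, other pseudocounts, filters, scalings and thresholds, a replicate block, and each library left out in turn. The limma step was tested on simulated data with large changes planted in better counted genes only. That test does not cover genes with few reads.

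The 47 genes, their classes and the other lists were chosen with earlier results of these data known. Values per library are given for every called gene, for the most counted gene of each class, and for *Cdk1*, *Plk1*, *Aurkb*, *Ccnb1*, *Birc5* and *Top2a*. Genes of other lists are named where called, with *Foxm1*, *Mybl2*, the uncalled helicase subunits and the leading LPM marker. The called LPM and SPM markers are given by their count. Sequences were read from RefSeq tables of GRCm38.p6, and transcript lengths from GENCODE M21.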

Additional observations from a re-analysis of the deposited data

How the results depend on the processing

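*Mki67*, *Top2a*, *Cdca2*, *Ncaph*, *Smc4*, *Cenpe*, *Cenpf*, *Ccnb2* and *Kif20b* kept a log2 difference below 0 under every alternative that gave a value. Of these 9 genes, all were called by voom, edgeR, both pseudocounts and the replicate block. Library-total scaling, an adjusted p under 0.01 and a mean value of at least 10 each called 8 of them. Dropping the filter or the fold threshold could not lose a call. The filter had removed no gene, and the threshold only takes calls away. In this paragraph, counts of the 47 genes and of other mitotic genes are of calls lower. Counts of all genes are of calls in either direction, unless said to be lower. Without the mean-variance trend limma called 0 of the 47 genes, 0 of the 108 other mitotic genes and 0 of all genes. At an unadjusted p under 0.05, 18 and 11 were lower, with 1579 of all genes in either direction. Quantile normalization called 0, 0 and 43, with 18 and 11 lower and 1620 of all genes in either direction at an unadjusted p under 0.05. A pair of alternatives chosen after seeing the data, on the 10049 genes with a mean value of at least 10, gave 7, 1 and 320 for quantile normalization and 0, 0 and 28 for limma without the trend. DESeq2 called 5, 1 and 246; it gave an adjusted p for 17 of the 47 genes, and of the 9 it did not call *Top2a* (adjusted p = 0.0778) and *Kif20b* (adjusted p = 0.187) and gave no adjusted p for *Ncaph* and *Cdca2*. Of the other mitotic genes, edgeR called 4 lower, library-total scaling 1 and an adjusted p under 0.01 also 1. Over all genes these called 194, 161 and 124 lower. Leaving out a library in turn gave 2 to 11 of the 47 genes called lower (2 without WT replicate 2, 6 without Rxra-KO replicate 1), 0 to 4 other mitotic genes and 236 to 377 of all genes, and a median log2 difference from -1.45 to -0.57, where the lone library of a group was assumed to vary like the others. The replicate block called 9 of the 47 genes, 3 other mitotic genes and 540 of all genes; replicate numbers are shared by the groups without a stated pairing, and deviations of same-numbered libraries correlated at 0.0629 over 10049 genes.

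Signs changed only in genes called in neither fit. *Prc1* was -0.11 with a pseudocount of 5 and -0.94 in edgeR, *Plk1* was -0.32 in edgeR, and *Birc5* was -0.021 with either quantile normalization. With each library left out in turn, the log2 difference ran from -0.22 to 0.94 for *Cenpa*, -1.21 to 2.45 for *Plk1*, -0.13 to 0.21 for *Birc5*, -0.20 to 0.041 for *Racgap1*, -1.57 to 2.01 for *Prc1*, -1.56 to 0.15 for *Bub1b*, -1.14 to 0.67 for *Aurkb*, -2.34 to 0.60 for *Kif4*, -1.16 to 0.32 for *Anln*, -0.18 to 0.084 for *Ccna2*, -0.18 to 0.68 for *Ube2c* and -0.72 to 0.12 for *Bub1*. The causes of these changes were not tested.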

Other observations

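Genes of DNA replication, the phase that precedes mitosis, were read beside the mitosis genes. All 46 genes of an S phase list were in the table, and 5 were called lower in Rxra-KO and 0 higher by limma, with 12 lower and 0 higher at an unadjusted p under 0.05, where 0.969% of all genes were called lower and 4.42% were lower at that unadjusted p. The called genes were *Mcm2*, *Mcm3* and *Mcm5*, subunits of the replicative helicase, *Cdt1*, which loads that helicase, and *Tk1*, which salvages thymidine. *Tk1* had 14 and 35 reads in WT against 5 and 4 in Rxra-KO, a log2 difference of -2.08 (limma, adjusted p = 0.0233). The called helicase genes were close to one another, at -1.31 for *Mcm2*, -1.28 for *Mcm3* and -1.34 for *Mcm5*, and *Cdt1* was at -1.42. The other helicase subunits *Mcm4*, *Mcm6* and *Mcm7* had log2 differences of 0.58, -0.12 and -0.42 and were not called. *Mcm3* (adjusted p = 0.0499) and *Cdt1* (adjusted p = 0.0469) were close to the threshold. The median over the 46 genes was -0.55. WT replicate 2 was above WT replicate 1 in 36 of the 46, and the Rxra-KO mean stood at a median of -0.31 against WT replicate 1 and -1.09 against WT replicate 2. The count called lower was 0 without WT replicate 2, 3 without Rxra-KO replicate 1 and 1 without Rxra-KO replicate 2. Calls lower over all genes were also fewer without WT replicate 2 and without Rxra-KO replicate 1. The S phase count was 5 in edgeR, 3 with library-total scaling and 0 in DESeq2. Over all genes these called 194, 161 and 112 lower. DESeq2 gave an adjusted p for 15 of the 46. The S phase count was also 0 at an adjusted p under 0.01, where 124 of all genes were called lower. It was 0 in limma without the mean-variance trend and after quantile normalization, beside 0 and 18 of all genes. In these fits 12 and 10 S phase genes were lower at an unadjusted p under 0.05. At that p, 1579 and 1620 of all genes stood in either direction. No test was made of the difference between the S phase and mitosis genes.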
